A study of Mus musculus with 9 samples.

Results

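The genes described here are 8 core genes of the Hedgehog pathway, *Shh*, *Ptch1*, *Hhip*, *Smo*, *Sufu*, *Gli1*, *Gli2* and *Gli3*, chosen by name among the 17943 genes of a skin RNA-Seq count table. All 8 had a row in the table and all 8 passed the filter on low counts. The libraries came from whole skin of 5 control and 4 *Supt6*-KO mice, taken 10 days after their last injection. *Supt6* encodes SPT6, a histone chaperone that travels with RNA polymerase II and assists transcript elongation. The *Supt6*-KO mice were K14-CreERT; *Supt6* fl/fl and received tamoxifen, and the controls were *Supt6* fl/fl mice without the Cre transgene that received corn oil, so both groups carried the floxed alleles. The Cre transgene and tamoxifen were both present in every *Supt6*-KO mouse and in no control, and their effects cannot be told apart from that of the deletion. Cre was driven by the keratin 14 promoter, which is active in basal keratinocytes and hair follicle epithelium, whereas the RNA came from all cells of the skin. The sample labels give the tissue as ear and the controls as wild type. The study's text describes dorsal skin, taken from lesions in the *Supt6*-KO mice and matched to them in the controls. Per the study's text, injections were given in the first telogen, the resting phase of the hair cycle that precedes new hair growth, and sex and age in days were not given for the sequenced mice in the sources used here. Nothing in the labels names litters or separate cages, so p-values measure the spread between these mice.

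Hedgehog ligands are secreted proteins that bind Patched receptors and thereby release Smoothened, which acts at the primary cilium to turn GLI proteins from repressors into activators of transcription. In skin, Sonic hedgehog is made by hair follicle epithelium and acts both on neighbouring epithelial cells and on the dermal papilla, the cluster of mesenchymal cells at the base of the follicle. *Gli1*, *Ptch1* and *Hhip* are themselves classical transcriptional targets of the pathway, and their RNA level is commonly read as its output.

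All of the genes but *Smo* were lower in *Supt6*-KO skin by edgeR's quasi-likelihood test (adjusted p under 0.05 over all genes), and *Smo* was slightly higher. This makes 7 lower and 1 higher of 8, against a background of 36.8% of the 16426 genes tested that were lower and 34.1% that were higher, or 71% called in either direction. The same 7 were also at least 2-fold lower, where 24.9% of all genes tested were, and none was 2-fold higher, where 20.9% of all genes were. With library totals 8 of 8 were lower, against 54.6% of all genes, and 0 were higher, against 16.9%. The median log2 fold change of the 8 genes was -1.44, against -0.07 over all genes tested. In 6 of the 8 all *Supt6*-KO mice lay below all controls, as in 31.8% of all genes, and for *Smo* every *Supt6*-KO mouse was above every control, as in 28.9%. The groups overlapped only for *Shh*.

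Unless a count is named, values are CPM, read counts relative to the library size, scaled by edgeR's TMM factors, which correct each library total for its composition. Library totals were 29627341 to 30491197 counts in the controls and 30597189 to 30967107 in the *Supt6*-KO mice. Control libraries had TMM factors of 1.198 to 1.315 and *Supt6*-KO libraries of 0.674 to 0.91, so the choice of scaling bears on every value. Scaling by library totals alone shifted the median over all genes to -0.76 (log2), and the share of calls that were higher moved from 48.1% to 23.6%. A pair of libraries stood apart. On the second principal component, which held 8.1% of the variance, control mouse 5 was at -50.8 and *Supt6*-KO mouse 4 at -59, while the other 7 mice lay between -0.1 and 31.5. Without both of these mice, the same 7 genes were lower, as were 6284 of all 16201 genes tested. *Smo* then missed the threshold (log2 fold change 0.20, adjusted p = 0.066 by edgeR).

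The fold changes also followed transcript length across the whole table. Over the 4511 genes tested whose longest annotated transcript is under 2000 bases, the median log2 fold change was 0.74. It was -0.04 for 6577 genes of 2000 to 4000 bases, the class of *Shh* and *Smo*. It was -0.63 for 4414 genes of 4000 to 8000 bases, the class of *Ptch1*, *Gli1*, *Gli2* and *Sufu*, and -1.09 for 857 longer genes, the class of *Gli3* and *Hhip*. At least 2-fold lower with adjusted p under 0.05 were 36.9% of the genes in the 4000 to 8000 class and 51.0% in the longest class. Each gene was therefore also fitted after the length trend of each library had been removed. Under this correction the same direction and call held for all 8 genes, but only 4 of the 8 (*Shh*, *Gli1*, *Gli2* and *Hhip*) remained at least 2-fold lower, against 19.8% of all genes. Whether the trend reflects RNA quality, library preparation or the biology of these mice was not tested.

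The level of the targeted gene was set against the labels. *Supt6* (NCBI gene 20926, chr11:78206749-78245972 of GRCm38, reverse strand) was counted 2786, 2068, 2297, 3370 and 3798 times in the 5 controls and 684, 503, 478 and 791 times in the 4 *Supt6*-KO mice. All *Supt6*-KO mice were below all controls, as in 31.8% of all genes tested. Its mean level was 76.5 ± 17.2 CPM in the controls (SD, n = 5) and fell to 33.7% of that, 25.7 ± 3.31 CPM (SD, n = 4), in the *Supt6*-KO mice, with a log2 fold change of -1.57 (SE 0.18, edgeR adjusted p = 1.3e-05). An exact two-sided permutation test over the mice gave p = 0.0159, the smallest these group sizes allow. Its longest transcript has 6488 bases, in the class where 36.9% of genes were at least 2-fold lower. With the length correction the log2 fold change of *Supt6* was -0.76.

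**Figure D1:**
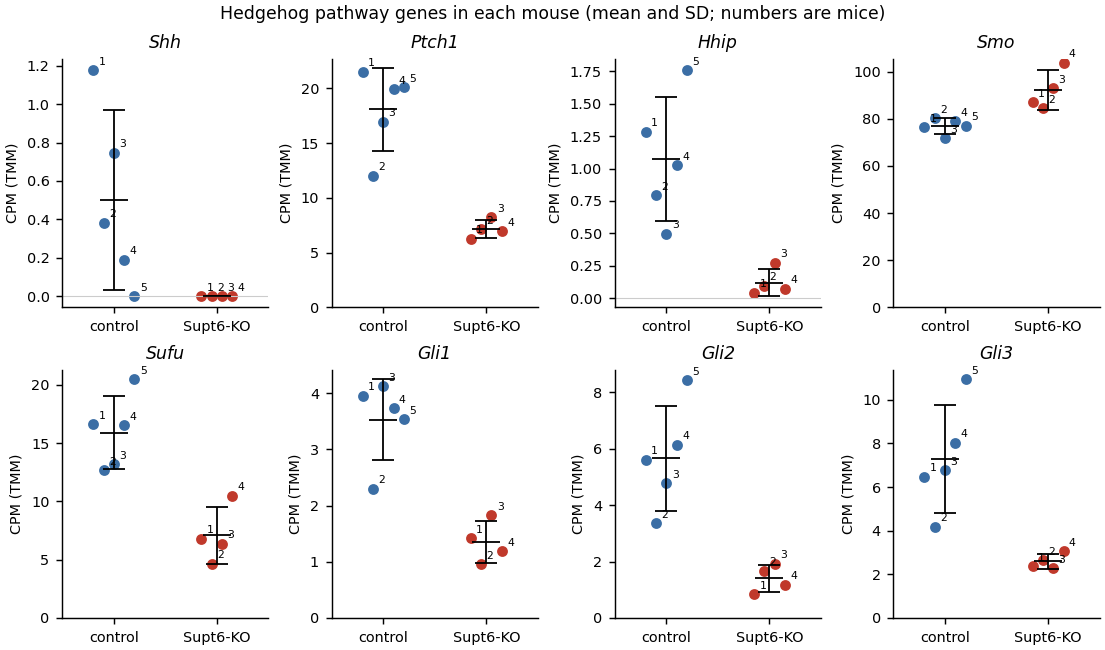
TMM-scaled CPM of the 8 Hedgehog pathway genes in each of 5 control mice (blue) and 4 *Supt6*-KO mice (red), each point a numbered mouse, with the group mean and SD in black. *Smo* is the only panel in which the red points lie above the blue ones, and *Shh* is the only panel in which the groups overlap, because control mouse 5 is at 0 like the *Supt6*-KO mice.

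*Ptch1*, *Hhip* and *Smo* act at the same membrane step and differed in direction with TMM scaling, so the sequences just upstream of their start sites are shown. With library totals *Smo* was lower as well (log2 fold change -0.42). Each is the 250 bases before 1 start site of the gene in RefSeq (GRCm38.p6), which need not be the outermost end of its annotated span, printed 5′ to 3′ on the strand of the gene, with the GC box GGGCGG or its reverse complement CCGCCC in capitals. The *Ptch1* window (chr13:63565736-63565985, reverse strand) lies inside the annotated span of the gene, as does that of *Gli2*. The *Hhip* window (chr8:80058009-80058258, reverse strand) overlaps the start of its gene's span, and the *Smo* window (chr6:29735247-29735496, forward strand) lies just before its gene's span.
Ptch1: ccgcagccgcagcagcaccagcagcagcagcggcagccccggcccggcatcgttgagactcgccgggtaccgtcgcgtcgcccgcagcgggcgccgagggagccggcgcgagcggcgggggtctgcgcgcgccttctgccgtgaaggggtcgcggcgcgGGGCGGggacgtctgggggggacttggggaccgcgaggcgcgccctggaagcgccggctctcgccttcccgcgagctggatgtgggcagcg
Hhip: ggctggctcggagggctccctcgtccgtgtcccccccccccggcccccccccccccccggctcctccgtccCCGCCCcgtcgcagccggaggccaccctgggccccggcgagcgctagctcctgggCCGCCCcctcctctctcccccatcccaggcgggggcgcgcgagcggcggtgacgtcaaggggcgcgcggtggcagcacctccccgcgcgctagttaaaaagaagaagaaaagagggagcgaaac
Smo: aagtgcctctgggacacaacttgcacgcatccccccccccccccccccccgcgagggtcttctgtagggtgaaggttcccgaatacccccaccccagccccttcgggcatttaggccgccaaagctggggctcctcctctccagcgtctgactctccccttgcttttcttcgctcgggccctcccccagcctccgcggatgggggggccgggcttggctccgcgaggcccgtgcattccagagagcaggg
The *Ptch1* window holds 1 GC box, the *Hhip* window holds 2 and the *Smo* window holds 0. Of the other windows available, *Gli2* had 1, *Gli3* had 2 and *Sufu* had 1, and 35.4% of 27025 mouse genes had at least 1 in a window of this length. The GC content was 78.4% for *Ptch1*, 76.0% for *Hhip* and 68.4% for *Smo*, against a median of 52.4% over all windows. The GLI consensus GACCACCCA (reverse complement TGGGTGGTC) was found in none of these 6 windows, extended to 50 bases after the start, and 0.289% of all genes held it. Its shorter core ACCACCCA (reverse complement TGGGTGGT), which the longer motif contains, was also found in none of the 6, and 1.72% of genes held it. No window was available for *Shh* and *Gli1*.

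*Shh* encodes the ligand. It lies on chr5:28456840-28467101 (NCBI gene 20423, reverse strand) and was counted 44, 14, 27, 7 and 0 times in control mice 1 to 5. It was counted 0 times in each of the 4 *Supt6*-KO mice. Detection was thus limited to 4 of 5 controls, at 0.189 to 1.18 CPM in those mice, and control mouse 5 could not be separated from the *Supt6*-KO group. The control mean was 0.499 ± 0.469 CPM (SD, n = 5), with an SD nearly as large as the mean. A floor of 3 counts per library corresponds to 0.129 CPM in the *Supt6*-KO mice, so the mean was at least 3.88-fold lower there, a limit that covers counting error only. Without control mouse 1 the control mean was 0.330 CPM and the limit 2.57-fold. edgeR called the gene lower (adjusted p = 0.013), and the fitted log2 fold change is not given as a size because it depends on the prior count.

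Hair genes also varied widely among the controls. Summed over a list of 10 measured hair matrix and shaft genes, controls 1 to 5 had 1627, 173, 596, 354 and 39.4 CPM. The highest and the lowest control in this sum, mice 1 and 5, were also the highest and the lowest for *Shh*, whereas mice 2 and 4 were in the opposite order for the hair sum and for *Shh*. The *Supt6*-KO mice had 12.8, 8.54, 9.56 and 12.4 CPM, below every control. All 10 hair genes were lower by edgeR (36.8% of all genes tested), with a median log2 fold change of -7.05. In 7 of the 10 the groups did not overlap, with lower values in the *Supt6*-KO mice, as in 31.8% of all genes. *Krt71*, an inner root sheath keratin and the most abundant of the list, went from 212 ± 262 to 0.488 ± 0.155 CPM (SD). *Krt25*, another inner root sheath keratin, went from 113 ± 133 to 0.0748 ± 0.0590 CPM. The hair cortex keratins *Krt35* and *Krt31* were at 19.3 and 22.2 CPM in the controls, and were counted 0, 0, 0 and 3 times and 1, 0, 2 and 1 times in the *Supt6*-KO mice. The control means rest on a few mice. Without control mouse 1 they were 101 CPM for *Krt71*, 57.2 for *Krt25*, 10.7 for *Krt35* and 11.5 for *Krt31*. Control mouse 5 was at 0.687 CPM for *Krt71*, and its 0.102 CPM of *Krt35* lay below the 0.108 CPM of *Supt6*-KO mouse 4. In bulk skin, fewer cells of a type and less RNA per cell cannot be told apart, and the part of these cells in the *Shh* difference was not tested.

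**Figure D2:**
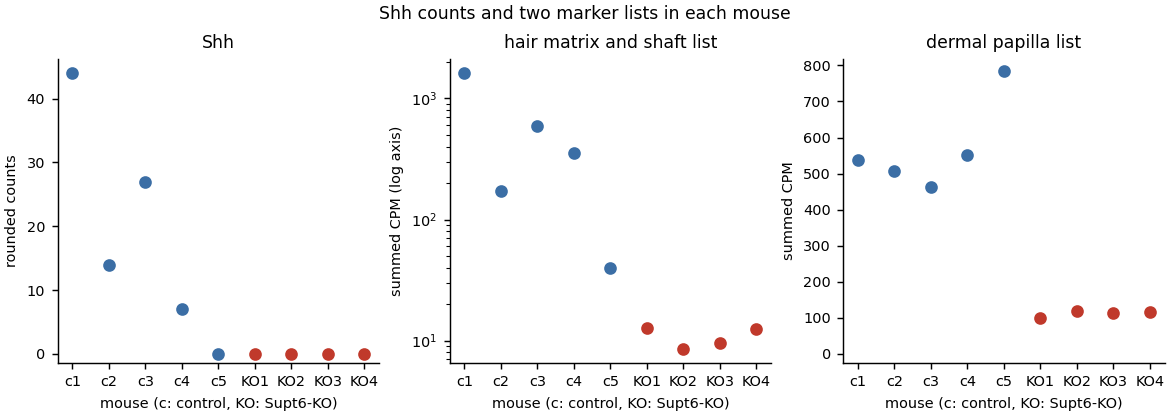
Rounded *Shh* counts (left), summed CPM of the hair matrix and shaft list on a log axis (middle) and summed CPM of the dermal papilla list (right) in each control mouse (blue, c1 to c5) and *Supt6*-KO mouse (red, KO1 to KO4). Control mouse 5 has 0 *Shh* counts and the lowest hair sum of the controls, 39.4 CPM, but the highest dermal papilla sum, 783 CPM. Its sums of the fibroblast and cartilage lists, not shown here, are also the highest of the controls.

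*Ptch1* encodes the receptor for the ligand and is induced by the pathway that it restrains. The gene (chr13:63508328-63573460, reverse strand, longest transcript 7725 bases in 23 exons) was at 21.5, 12, 16.9, 19.9 and 20.1 CPM in the controls and at 6.27, 7.15, 8.23 and 6.93 CPM in the *Supt6*-KO mice. The lowest control, mouse 2, was above the highest *Supt6*-KO mouse. *Ptch1* fell from 18.1 ± 3.78 to 7.15 ± 0.816 CPM (SD, n = 5 and 4), with a log2 fold change of -1.34 (SE 0.18, edgeR adjusted p = 5.6e-05). Of the 7 lower genes it was the one that the length correction reduced most in proportion, to -0.44 (adjusted p = 0.025). Control mouse 5, with 0 counts of *Shh*, had 790 counts of *Ptch1*, and the relation between these genes was not tested.

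*Hhip* encodes a membrane protein that binds and sequesters Hedgehog ligands, and it is also induced by the pathway. The gene (chr8:79965850-80058060, reverse strand, 9074 bases) was counted 48, 29, 18, 38 and 69 times in the controls and 1, 2, 6 and 2 times in the *Supt6*-KO mice. It had the largest fold of the 7 genes detected in both groups, from 1.07 ± 0.480 to 0.121 ± 0.105 CPM (SD), or to 11.3% of control. The groups did not overlap, and the log2 fold change was -3.15 (SE 0.54, edgeR adjusted p = 0.00031). With the length correction it was -2.17. Of the 4 *Supt6*-KO values 3 rest on 1 or 2 counts, and without *Supt6*-KO mouse 3, which had 6, the mean was 6.52% of control and the log2 fold change -3.89.

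*Smo* encodes Smoothened, the transmembrane protein that Ptch1 holds inactive. It lies on chr6:29735497-29761366 (forward strand, 3779 bases) and was at 76.4, 80.3, 71.9, 79.0 and 77.0 CPM in the controls and at 87.1, 84.5, 93.0 and 104 CPM in the *Supt6*-KO mice. All 4 *Supt6*-KO mice were above all controls, by a narrow margin. The means were 76.9 ± 3.22 and 92.1 ± 8.52 CPM (SD), with a log2 fold change of 0.26 (SE 0.10, edgeR adjusted p = 0.037). The direction rests on the scaling: with library totals *Smo* was at 95.6 CPM in the controls and 71.3 in the *Supt6*-KO mice, and the log2 fold change was -0.42 (adjusted p = 0.024). It missed the threshold when any one of 6 of the 9 mice was left out (controls 1, 3, 4 and 5, *Supt6*-KO mice 3 and 4), with values from 0.19 to 0.27. With the length correction it was 0.59 (adjusted p = 0.00017).

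*Sufu* encodes the cytoplasmic inhibitor that binds GLI proteins. The gene (chr19:46396896-46488804, forward strand, 4522 bases) was at 16.6, 12.6, 13.2, 16.5 and 20.5 CPM in the controls and at 6.81, 4.65, 6.36 and 10.5 CPM in the *Supt6*-KO mice. The groups came close at control mouse 2 and *Supt6*-KO mouse 4 but did not overlap. *Sufu* fell from 15.9 ± 3.16 to 7.08 ± 2.46 CPM (SD), with a log2 fold change of -1.16 (SE 0.24, edgeR adjusted p = 0.00094) and of -0.68 with the length correction (adjusted p = 0.01).

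The 3 GLI transcription factors were all lower. *Gli1*, an activator and a target of the pathway (chr10:127329882-127341579, reverse strand, 4057 bases), was at 3.96, 2.3, 4.12, 3.73 and 3.54 CPM in the controls and at 1.42, 0.96, 1.83 and 1.19 CPM in the *Supt6*-KO mice. The groups did not overlap, although control mouse 2 was nearest to the *Supt6*-KO range. *Gli1* fell from 3.53 ± 0.723 to 1.35 ± 0.372 CPM (SD), with a log2 fold change of -1.39 (SE 0.25, edgeR adjusted p = 0.0004). With the length correction it was -1.0. Control mouse 5, at 0 for *Shh*, had 139 counts of *Gli1*, within the range of the other controls. The relation of *Gli1* to *Shh* was not tested.

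*Gli2*, the main activator of the pathway in most tissues (chr1:118834061-119054405, reverse strand, 6637 bases), was at 5.62, 3.37, 4.79, 6.14 and 8.43 CPM in the controls and at 0.836, 1.68, 1.92 and 1.19 CPM in the *Supt6*-KO mice. It was the most reduced of the GLI genes, from 5.67 ± 1.86 to 1.41 ± 0.488 CPM (SD), or to 24.8% of control. The log2 fold change was -2.02 (SE 0.32, edgeR adjusted p = 0.00015), and it was -1.17 with the length correction. *Gli3*, which acts largely as a repressor (chr13:15463723-15730026, forward strand, 8170 bases), was at 6.47, 4.19, 6.78, 8.03 and 10.9 CPM in the controls and at 2.38, 2.64, 2.29 and 3.05 CPM in the *Supt6*-KO mice. *Gli3* fell from 7.28 ± 2.47 to 2.59 ± 0.343 CPM (SD), with a log2 fold change of -1.49 (SE 0.26, edgeR adjusted p = 0.00034) that shrank to -0.54 (adjusted p = 0.024) with the length correction. For both genes control mouse 2 was the lowest control and control mouse 5 the highest.

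**Figure D3:**
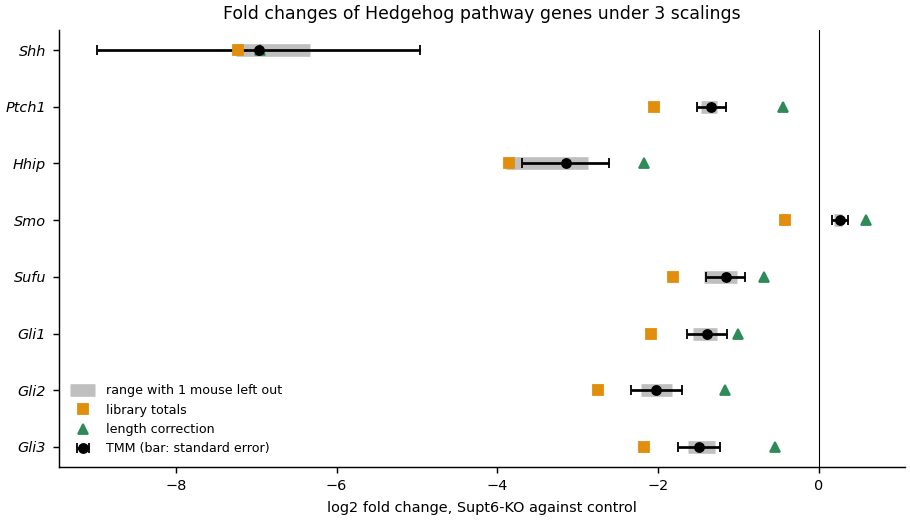
Log2 fold changes of the 8 genes between *Supt6*-KO and control skin with TMM scaling (black, bars are standard errors), library totals (orange squares) and the length correction (green triangles), and the range when 1 mouse at a time is left out (grey bars). Library totals move every gene to the left, and *Smo* across 0 to -0.42, while the length correction brings *Ptch1* and *Gli3* to -0.44 and -0.54.

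Levels of different genes can be set side by side only per length. The authors' TPM values, which cover the 5 controls and *Supt6*-KO mouse 4, put *Smo* first in the controls at 33.4 ± 4.50 TPM (SD, n = 5), followed by *Sufu* at 6.12 ± 2.00 and *Ptch1* at 4.17 ± 1.23. *Gli1* (1.69 ± 0.421), *Gli3* (1.47 ± 0.687) and *Gli2* (1.45 ± 0.663) came next, and *Shh* (0.324 ± 0.315) and *Hhip* (0.202 ± 0.115) were lowest. Each gene down to *Ptch1* was above the next in 5 of 5 controls, and so was *Gli2* above *Shh*. *Gli1* was above *Gli3* in 4 of 5 controls and *Gli3* above *Gli2* in 3 of 5, so the order among the GLI genes is within their spread, as is that of *Shh* and *Hhip* (3 of 5). In *Supt6*-KO mouse 4 the values were 22.5 for *Smo*, 1.98 for *Sufu*, 0.79 for *Ptch1*, 0.28 for *Gli1*, 0.30 for *Gli3*, 0.15 for *Gli2* and 0.01 for *Hhip*, and *Shh* was listed at 0. The TPM of *Smo* in that mouse was below every control (lowest control 28.3), whereas its CPM by library totals, 94.4, lay within the control range of 87.6 to 101 and its TMM-scaled CPM above it.

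Ratios between genes of one library do not depend on any scaling of that library, though they keep differences in length. The log2 ratio of *Ptch1* to *Sufu* was 0.18 ± 0.21 in the controls and 0.07 ± 0.54 in the *Supt6*-KO mice (SD). That of *Gli1* to *Sufu* was -2.17 ± 0.34 and -2.35 ± 0.56, and that of *Gli3* to *Sufu* was -1.17 ± 0.29 and -1.39 ± 0.41. The groups overlapped for these 3 genes, whose ratios to *Sufu* differed by 0.22 or less. *Gli2* and *Hhip* lost more than *Sufu* on average, by -0.80 and -1.86 on the log2 scale, but the groups overlapped for each. Against *Smo*, by contrast, *Ptch1*, *Gli1*, *Gli2*, *Gli3*, *Hhip* and *Sufu* were each lower in every *Supt6*-KO mouse than in every control, by -1.57, -1.64, -2.26, -1.68, -3.32 and -1.46.

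**Figure D4:**
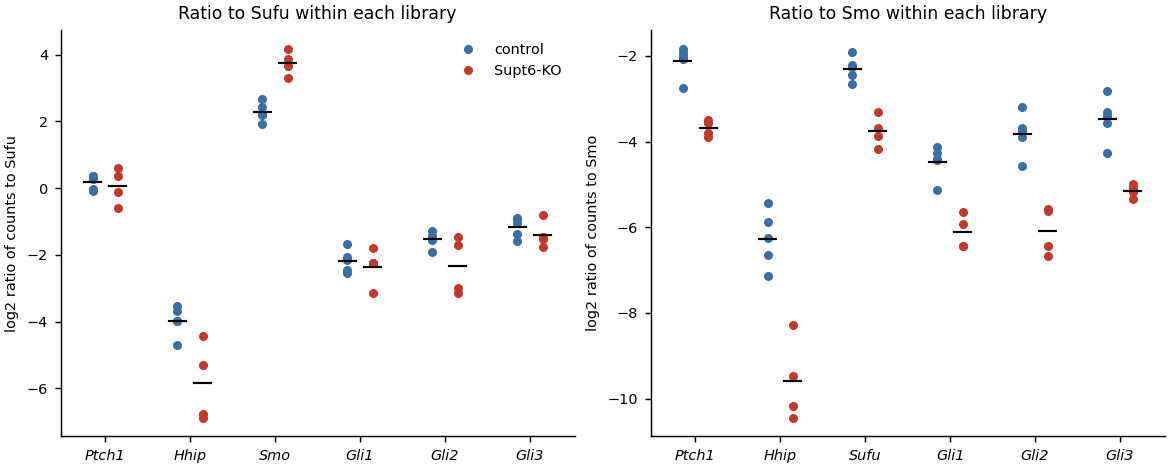
Log2 ratio of the counts of each gene to those of *Sufu* (left) and *Smo* (right) in the same library, with 0.5 added to each count, for 5 control (blue) and 4 *Supt6*-KO mice (red), black lines marking group means. The groups overlap for *Ptch1*, *Gli1*, *Gli2*, *Gli3* and *Hhip* against *Sufu*, and they separate for all 6 genes against *Smo*.

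The rest of the pathway was taken from lists of 42 further genes by role, of which 40 were tested (*Foxl1* was under the filter on low counts and *Lrp2* was not analysed here). Of these 40, 29 were lower, 2 were higher and 9 did not pass, where 36.8% of all genes tested were lower and 34.1% higher, and their median log2 fold change was -1.26. At least 2-fold lower were 25 of the 40 (24.9% of all genes), and 18 with the length correction (19.8% of all genes). With library totals 36 were lower (54.6% of all genes), 32 at least 2-fold (41.4%), and 0 were higher (16.9%).

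Among genes for the making and release of ligands, 6 of 7 were lower, where 36.8% of all genes tested were. The Scube genes, whose secreted products help to release the lipid-bearing ligand from cells, fell most. *Scube1* went from 23.1 ± 10.2 to 1.70 ± 0.163 CPM (SD, log2 fold change -3.76, edgeR adjusted p = 1.9e-06). *Scube2* had a log2 fold change of -3.64, which was -4.26 without *Supt6*-KO mouse 1, and *Scube3* of -3.42. The length correction moved *Scube1* to -3.12 and *Scube3* to -2.56. *Disp1*, the transporter that exports the ligand, went from 11.6 to 2.59 CPM (-2.15). *Ihh*, the Indian hedgehog ligand, was near 0.1 CPM in both groups and did not pass (adjusted p = 0.93).

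The co-receptors *Cdon* and *Boc*, which help cells to bind the ligand, were lower. *Cdon* went from 43.6 to 7.42 CPM (log2 fold change -2.56, or -1.64 with the length correction) and *Boc* from 50.6 to 22.3 CPM (-1.19, or -0.69 with the correction). The co-receptor *Gas1* was at 112 ± 14.7 and 117 ± 9.76 CPM (SD, adjusted p = 0.61 by edgeR).

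Of 4 further regulators of GLI proteins, 3 were lower, where 36.8% of all genes tested were. *Stk36*, the mammalian homologue of the fly kinase Fused, had a log2 fold change of -2.24 (-1.63 with the length correction) at group means under 1 CPM, and *Kif7*, a ciliary kinesin that organises GLI and Sufu at the cilium tip, went from 4.44 to 1.56 CPM (-1.51). *Spop*, an adaptor for GLI degradation, did not pass (0.31, edgeR adjusted p = 0.079), but was called higher without *Supt6*-KO mouse 4 (0.43, adjusted p = 0.0039).

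Ciliary genes were lower in 9 of 11 cases, where 36.8% of all genes tested were. *Gpr161*, a ciliary receptor that keeps protein kinase A active, went from 15 to 3.22 CPM (log2 fold change -2.22, or -1.37 with the length correction). The intraflagellar transport gene *Ift172* was at -1.97 (-1.29 with the correction), and *Evc* and *Evc2*, which bind Smoothened at the base of the cilium, were at -1.86 and -1.68. *Ift88*, another intraflagellar transport gene, did not pass (-0.04, edgeR adjusted p = 0.79), and *Efcab7*, which tethers the Evc proteins, was higher (0.78, adjusted p = 0.0017).

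Of 7 genes for kinases and degradation, 5 were lower, where 36.8% of all genes tested were. Among them were the ubiquitin ligase adaptor *Btrc* (-1.29) and the protein kinase A catalytic subunits *Prkaca* (-1.24) and *Prkacb* (-1.23, or -0.78 with the length correction). *Gsk3b*, a kinase that acts on GLI proteins in their processing, was at -1.19, and missed the threshold with the length correction (-0.27, edgeR adjusted p = 0.12). *Csnk1a1*, casein kinase 1 alpha, was higher at 482 and 962 CPM (1.0). With library totals neither *Csnk1a1* nor *Efcab7* was called higher.

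Of 7 downstream genes tested, 3 were lower, where 36.8% of all genes were. *Ccnd2*, a cyclin, went from 181 to 27.3 CPM (-2.73, or -1.97 with the length correction), *Mycn* from 1.25 to 0.142 CPM (-3.13) and *Foxe1*, a forkhead factor of the hair follicle, from 0.531 CPM to 0, 1, 0 and 1 counts in the *Supt6*-KO mice, too few for an exact fold. *Ccnd1*, another cyclin, did not pass (-0.67, edgeR adjusted p = 0.12), which rests on 1 mouse. It was at 78.5 to 102 CPM in the controls and at 39.0, 31.1 and 32.5 CPM in *Supt6*-KO mice 1 to 3, but at 120 CPM in mouse 4, above every control. Without *Supt6*-KO mouse 4 it was lower (-1.38, adjusted p = 2.6e-06 by edgeR), which would make 4 of 7. *Bcl2* did not pass (-0.33, adjusted p = 0.26). *Foxf1* and *Foxf2* did not pass either, at group means under 0.2 CPM, but *Foxf2* was called lower without *Supt6*-KO mouse 2 (-2.89, edgeR adjusted p = 0.022) or without control mouse 2 (-2.0, adjusted p = 0.048).

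**Figure D5:**
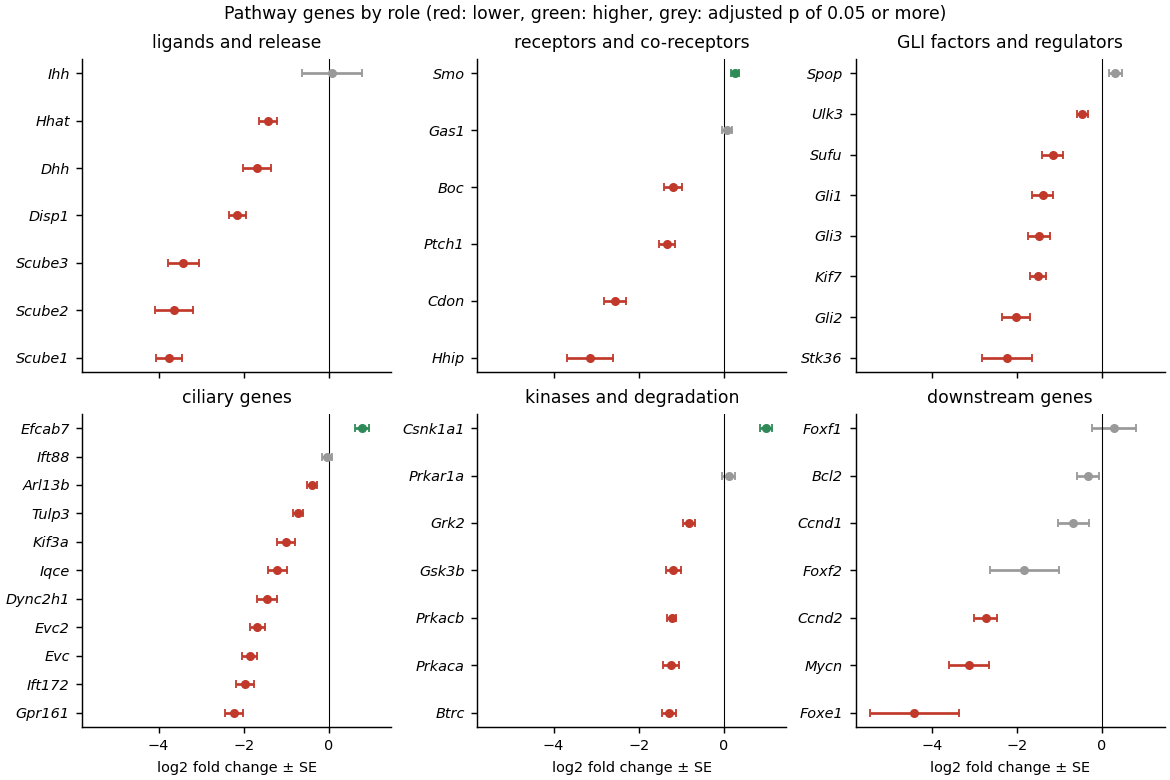
Log2 fold change ± SE of tested pathway genes between *Supt6*-KO and control skin, in 6 panels by role, coloured by edgeR call (red lower, green higher, grey not past adjusted p of 0.05); *Shh*, at 0 counts in all *Supt6*-KO mice, is left out. Most points lie to the left of 0 in every panel, and the 3 green points are *Smo*, *Efcab7* and *Csnk1a1*.

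Markers of cell types that send or receive the signal, and of other cells of the skin, were counted in the same way, against 36.8% of all genes tested that were lower and 34.1% that were higher (54.6% and 16.9% with library totals). Of 8 hair follicle stem cell genes, 8 were lower, and their sum was 2226 to 2968 CPM in the controls and 336 to 592 CPM in the *Supt6*-KO mice. The most abundant, *Krt15*, went from 2303 to 367 CPM, and the stem cell transcription factor *Sox9* was at a log2 fold change of -1.79. The call for *Cd34* (-0.35, edgeR adjusted p = 0.047) was lost when any mouse but control 3 or control 4 was left out. Of 9 dermal papilla genes, 6 were lower, 1 was higher (*Crabp1*) and 2 did not pass. Their sum was 538, 507, 463, 550 and 783 CPM in the controls and 100, 119, 114 and 116 CPM in the *Supt6*-KO mice, led by the secreted Wnt inhibitor *Wif1* at 495 and 85.6 CPM. The highest control sum was that of mouse 5, in which *Shh* was at 0, and 674 of its 783 CPM were *Wif1*. Control mouse 5 also had the highest control sums of the fibroblast (10909 CPM), cartilage (783 CPM), endothelial (104 CPM) and sebaceous (6896 CPM) lists. Without *Supt6*-KO mouse 3 *Crabp1* was not called (0.52, edgeR adjusted p = 0.082), and *Fgf7* was called higher without *Supt6*-KO mouse 1 (0.62, adjusted p = 0.022) or control mouse 5 (0.60, adjusted p = 0.027). *Corin*, a dermal papilla protease, was at -3.28 and *Fgf10* at -1.48.

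Of 9 dermal fibroblast genes, 5 were lower and 4 did not pass. The most abundant, *Col3a1*, was at 2112 and 1710 CPM (adjusted p = 0.43 by edgeR), whereas *Col1a1* had a log2 fold change of -3.64. The fibroblast sum was 3159 to 10909 CPM in the controls, highest in mouse 5, and 2130 to 4017 CPM among the *Supt6*-KO mice. Of 7 basal keratinocyte genes, 6 were lower, among them the hemidesmosome genes *Itgb4* (-2.69), *Dst* (-2.57) and *Col17a1* (-2.45), while *Krt14* did not pass (0.66, adjusted p = 0.063 by edgeR) except without *Supt6*-KO mouse 2 (0.84, adjusted p = 0.021). The basal sum was 10068 to 11283 CPM in the controls and 5531 to 13938 CPM in the *Supt6*-KO mice, highest in mouse 4. Of 6 suprabasal genes, 2 were higher (*Krt1* at 3.65 and *Ivl* at 1.99), 1 was lower (*Lor*) and 3 did not pass, and the sum was 19588 to 22092 CPM against 17959 to 37810 CPM, led by *Krt10*, which was called higher without *Supt6*-KO mouse 4 (0.42, edgeR adjusted p = 0.049).

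Schwann cells are a known source of Desert hedgehog in nerve. Their myelin gene *Mbp* had a log2 fold change of -1.91, and *Dhh*, which encodes that ligand, went from 1.88 to 0.585 CPM. Sebaceous gland genes were lower in 4 of 6 cases (led by *Scd1*), with a sum of 5698 to 6896 CPM against 718 to 1265 CPM, and without *Supt6*-KO mouse 1 *Dgat2l6* was lower as well, while without *Supt6*-KO mouse 4 *Awat2* was higher. Endothelial genes were lower in 4 of 5 (led by *Pecam1*, sums 48.0 to 104 against 30.6 to 41.1 CPM, with the call for *Tek* lost without *Supt6*-KO mouse 3), adipocyte genes in 4 of 5 (led by *Fabp4*, which did not pass except without control mouse 2, sums 212 to 387 against 266 to 406 CPM) and skeletal muscle genes in 4 of 5 (led by *Acta1*, sums 3091 to 4185 against 695 to 1180 CPM). Immune genes were higher in 6 of 7 (led by *S100a9*), with a sum of 128 to 193 CPM in the controls and 2974 to 7358 CPM in the *Supt6*-KO mice. Most of the mean *Supt6*-KO sum of 5345 CPM was *S100a9* (2715 CPM) and *S100a8* (1919 CPM). The other log2 fold changes were 2.79 for *Lyz2*, 1.06 for *Itgam*, 1.04 for *Cd68* and 0.52 for *Adgre1*. *Ptprc*, at 18.3 and 21.7 CPM, did not pass (0.24, edgeR adjusted p = 0.21). The call for *Adgre1* was lost without any of control mice 2, 3 and 4 or *Supt6*-KO mice 1, 2 and 3, and *Ptprc* was called higher without *Supt6*-KO mouse 4.

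Cartilage is a tissue of the ear. Of 7 cartilage markers, 6 were detected in every control. The sum of the list was 456, 355, 329, 533 and 783 CPM in the controls and 46.6, 46.8, 42.1 and 50.1 CPM in the *Supt6*-KO mice. All 6 tested were lower, with *Acan*, the most abundant, at a log2 fold change of -3.55 and *Col2a1* at -3.86. The remaining gene, *Matn1*, had at most 1 count in any control and 0 in all *Supt6*-KO mice, and was under the filter on low counts. Chondrocytes are known to express Hedgehog receptors and GLI factors. The part of each of these cell types in the values of the 8 genes was not tested.

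The genes most like each of the 8 were those with the smallest root mean square difference between centred log2 CPM profiles over the 9 mice, among 13564 genes with a mean of at least 1 CPM. *Shh* was nearest to *Fbp1* (0.54), *Krtap17-1* (0.55) and *Cryba4* (0.62), and *Hhip* to *Kank4* (0.36), *Col14a1* (0.39) and *Cpz* (0.39). *Ptch1* and *Gli1* shared their nearest gene, *Ppm1h* (0.15 and 0.20), a phosphatase gene that is followed by *Dock1* for *Ptch1* and *Rnf43* for *Gli1*. *Gli2* was nearest to *Tox* (0.17), *Ncam1* (0.20) and *Nes* (0.22), and *Gli3* to *Zc3h13* (0.12), *Lpp* (0.14) and *Pou2f1* (0.15). *Sufu* was nearest to *Sel1l* (0.07), *Extl3* (0.08) and *Msn* (0.10), and *Smo* to *Abcf3* (0.05), *Khdrbs1* (0.06) and *Slc30a7* (0.06). *Smo*, with low distances, had high counts and a small spread, and *Shh* and *Hhip*, with high distances, had few counts. What sets these distances was not tested.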

How the data were processed

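Whole-skin RNA was sequenced as paired reads from 9 mice. Per the methods, reads were mapped to mm10 by Bowtie2 (2.3.4.3), and the authors deposited RSEM (1.3.1) estimated counts per gene, not normalized between mice, together with TPM for 6 of the 9 mice (the authors' scaling by transcript length and library total). The submitters' processing notes also list HISAT and DESeq2 1.4.5. The annotation release is not given in the sources used here. About 9.0% of the estimated counts were not whole, and all were rounded.

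Of the gene identifiers, 17850 matched RefSeq GRCm38.p6 and 93 did not. Gene coordinates, strands and lengths are those of RefSeq and GENCODE for GRCm38. Genes with a sum under 10 counts over 9 mice were left out. Groups were compared with edgeR 4.0.16 (quasi-likelihood test, TMM, no covariates, Benjamini-Hochberg adjustment over 16426 genes, R 4.3.3). The standard error is the absolute log2 fold change divided by the square root of F. The length correction subtracted a lowess curve (span 0.3) of log2 CPM deviations against the log10 length of the longest transcript in each library. Counting error alone sets the floor of 3 counts. The test was tried on simulated counts first. Library counts were compared between mice, and no library was a copy of another (mean chi-square per gene 21.6 to 566.7).

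The alternatives were DESeq2 1.42.0, other scalings and filters, the 50 most abundant genes left out, the length correction, a replicate block, and each mouse left out. The fit without control mouse 5 and *Supt6*-KO mouse 4, and the length classes, were added after seeing the data. The members and gene lists were chosen with earlier results of these data known. Genes named are the 8 members, *Supt6*, in each pathway list up to 4 called genes of largest change (at least 2-fold), in each marker list its most abundant gene and up to 3 of largest change, and the 3 genes most alike to each member. Others were named after their values were seen. They are *Ihh*, *Gas1*, *Spop*, *Dhh*, *Ift88*, *Efcab7*, *Csnk1a1*, *Ccnd1*, *Bcl2*, *Foxf1*, *Foxf2*, *Crabp1*, *Matn1*, *Cd68*, and marker genes whose call rests on 1 mouse. Results for 1 gene of the pathway lists and for 1 marker list are not reported here. Tables were made in Python 3.11.15 (pandas 2.3.3, scipy 1.17.1).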

Additional observations from a re-analysis of the deposited data

Results flagged for a closer look

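Of 88 groups of values examined for 1 mouse standing apart from its group, 7 were picked out by Dixon's test, and chance would pick out about 4.4. None was among the 8 members. Among pathway genes, control mouse 5 was high for *Scube2* (4.56 CPM, group median 2.52) and for *Boc* (79.3 CPM, median 44.7), and control mouse 1 was high for *Mycn* (2.43 CPM, median 1.04). Control mouse 3 was low for *Prkaca* (68.6 CPM, median 73.8), and *Supt6*-KO mouse 4 was low for *Kif7* (1.29 CPM, median 1.64). Among the summed marker lists, control mouse 5 was high for dermal papilla genes (783 CPM, median 538) and control mouse 4 for basal keratinocyte genes (11283 CPM, median 10255).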

How the results depend on the processing

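Over 19 alternatives, *Ptch1*, *Gli1*, *Gli2*, *Gli3* and *Sufu* kept their direction and call in 19 of 19, and *Shh* and *Hhip* in the 18 that gave a value (a filter of 10 counts in every mouse removed both). With the length correction 4 rather than 7 members were at least 2-fold lower. *Smo* reversed to -0.42 with library totals, and missed the threshold with upper-quartile factors (0.17), 10 counts in every mouse (0.21), the replicate block (0.26, adjusted p = 0.065 by edgeR) and both outlying mice left out (0.20). The count of members higher was then 0 in each of these 5. Leaving out 1 mouse gave *Smo* values of 0.19 to 0.29, and 0 to 1 members higher. The 2 other pathway genes called higher became 0 with library totals. *Gsk3b* missed the threshold with the length correction (-0.27).

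Deviations of same-numbered mice correlated at -0.011, 0.243, 0.222 and 0.059, and those of differently numbered mice at -0.227 to 0.255. Control mouse 2 was nearest to *Supt6*-KO mouse 2 (0.243). Control mice 1, 3 and 4 were nearest to mice of another number (0.048, 0.255 and 0.219). These values do not settle whether replicate numbers pair the mice. The fit with a block for the replicate number (8 mice) called 5803 of 16315 genes tested lower and 5271 higher, and of the members 7 lower and 0 higher. With few counts, *Shh* and *Hhip* are limited by depth, and group sizes of 5 and 4 limit all other values.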
